A study of Homo sapiens with 9 samples.

Results

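DUOX2 and the genes for epithelial handling of superoxide and hydrogen peroxide formed a set of 7 gene names: DUOX2, DUOXA2, DUOX1, DUOXA1, CYBA, SOD1 and SOD2. They were chosen by name among the 58735 genes of the count table, with their levels in LINC00996-transfected cells already known, so their values in comparisons with those cells are a description and carry no test. Standard errors and intervals in those comparisons make no allowance for this choice and are not read as tests. The names found 8 entries, since SOD2 stands for 2 gene identifiers. The second SOD2 entry (ENSG00000285441) held 1 count in control replicate 3, 1 count in AP001189.3 replicate 3 and none in the other libraries, so SOD2 below is ENSG00000112096.

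DUOX1 and DUOX2 are dual oxidases of the epithelial cell surface, which pass electrons from NADPH to oxygen and release hydrogen peroxide. Each needs its maturation factor, DUOXA1 or DUOXA2, to leave the endoplasmic reticulum, and in airway lining the peroxide feeds peroxidases that act against microbes. CYBA is the membrane partner that stabilises several other NADPH oxidases, while SOD1 in the cytosol and SOD2 in mitochondria turn superoxide into hydrogen peroxide.

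The cells were A549, an established human lung adenocarcinoma line, and RNA was sequenced from 9 libraries in 3 groups of 3. The control group (titled PC3) was transfected with plasmids that the treatment labels call PC3.1, PC3.2 and PC3.3 for its 3 libraries. The paper names PC3.1 alone, and whether the plasmids differed is not stated. LINC00996 was overexpressed in the group titled L996 and AP001189.3 in the group titled RP11; both are long noncoding RNAs, and the comparisons ask how gene expression differs after each. The libraries held 15272450 to 18125447 counts. Levels are given as counts scaled to a common library size (CPM), with trimmed mean of M-values (TMM) factors over the 9 libraries.

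LINC00996 itself had 0.420 ± 0.165 CPM in control, 296 ± 23.5 in its own group and 0.472 ± 0.0149 in the AP001189.3 group (SD, n = 3). AP001189.3 had 98.2, 126 and 144 CPM in its own group and at most 2 counts in any of the 6 other libraries. The overexpressed genes thus matched the labels in 9 of 9 libraries. The paper describes extraction in triplicate for control and LINC00996; whether the libraries came from separate transfections was not stated, and they may be technical replicates. Standard errors come from the spread between these libraries, while intervals on summed counts cover counting error only.

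LINC00996 replicate 1 stood apart from its group. Its chi-square per gene (1 where libraries differ by counting error alone) against replicates 2 and 3 was 20.1 and 29.7, against 3.13 between those replicates, 3.21 to 6.70 among controls and 2.21 to 4.49 among AP001189.3 libraries. The deviation of its genes followed their GC content, with Spearman's rho of 0.43 across 16552 genes, which are not independent replicates; LINC00996 replicates 2 and 3 had -0.24 and -0.42. The controls ran from -0.28 to -0.00 and the AP001189.3 libraries from 0.20 to 0.35. Members are therefore given with and without LINC00996 replicate 1, and where GC content bears on a call, also with an offset for it.

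DUOX2 (ENSG00000140279) lies on the minus strand of chromosome 15, from 45092650 to 45114344 (GRCh38), and DUOXA2 (ENSG00000140274) on the plus strand from 45114321 to 45118421. The pair stand head to head, and the RefSeq transcription starts (GRCh38.p14) are 154 bases apart. The DNA between those starts is shown because both genes, whose levels differed most between groups among the 7, begin from it. It is written on the plus strand, chr15:45114173-45114325, with capitals for the letters TATAAA.
DUOX2 to DUOXA2: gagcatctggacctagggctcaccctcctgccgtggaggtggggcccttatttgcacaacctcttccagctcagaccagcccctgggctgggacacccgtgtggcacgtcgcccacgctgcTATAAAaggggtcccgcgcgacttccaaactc
This stretch of 153 bases had a GC content of 63.4% and 8 CG steps. TATAAA, searched on both strands after the sequence had been seen, ends 27 bases before the DUOXA2 start and lies 122 to 127 bases before the DUOX2 start on the opposite strand. It occurred in 11.5% of 35116 RefSeq promoter windows (250 bases before to 50 after a start). The gene models of the count table reach further than these starts and overlap by 24 bases.

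DUOX2, the oxidase, had 24.97, 21.5 and 19.6 CPM in control replicates 1 to 3. It had 1.48, 2.35 and 2.11 CPM in the LINC00996 replicates and 27.6, 21.7 and 22.4 CPM in the AP001189.3 replicates. Every LINC00996 library was far under every library of the other groups, while control and AP001189.3 libraries overlapped. The means were 22.04 ± 2.71, 1.98 ± 0.450 and 23.9 ± 3.21 CPM (SD, n = 3). With LINC00996, DUOX2 was 11.2-fold lower than in control, a log2 difference of -3.48 (SE 0.19, 95% interval -3.89 to -3.07). Without LINC00996 replicate 1 the difference was -3.30. In bulk RNA, fewer cells with a transcript and less of it per cell cannot be told apart.

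DUOXA2, which carries DUOX2 out of the endoplasmic reticulum, had 120, 88 and 98 counts in control, 4, 1 and 11 with LINC00996, and 155, 92 and 130 with AP001189.3. These corresponded to 7.07, 5.49 and 5.64 CPM, then 0.219, 0.0635 and 0.596, then 9.17, 5.99 and 7.89. The LINC00996 libraries were again the lowest 3 of the 9, and the other groups overlapped. Their 16 summed counts had a 95% Poisson interval of 9.15 to 26.0, against 306 counts in control and 377 with AP001189.3. The log2 difference from control was -4.29 (SE 0.41, 95% interval -5.18 to -3.41), or 19.6-fold lower, and -4.09 without LINC00996 replicate 1. With so few counts its size rests on single libraries, and it ran from -5.30 without LINC00996 replicate 3 to -3.87 with another library left out.

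DUOX1 (ENSG00000137857, plus strand, 45129933 to 45165576) and DUOXA1 (ENSG00000140254, minus strand, 45117367 to 45129938) form the neighbouring head-to-head pair on chromosome 15. RefSeq gives 1 start for DUOX1 and 2 for DUOXA1, at 45129879 and further off at 45123043. The nearer lies 115 bases from the DUOX1 start, and the stretch between them, chr15:45129880-45129993 on the plus strand, is shown to set it beside that of the other pair.
DUOXA1 to DUOX1: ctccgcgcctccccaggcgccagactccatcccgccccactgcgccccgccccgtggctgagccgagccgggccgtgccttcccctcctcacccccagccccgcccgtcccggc
Its 114 bases had a GC content of 80.7% and 13 CG steps, and no TATAAA on either strand.

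DUOX1, the other dual oxidase, had 2.36, 1.75 and 1.73 CPM in control, 1.81, 1.27 and 1.84 with LINC00996, and 1.36, 2.60 and 2.25 with AP001189.3. All 3 groups overlapped, unlike those of DUOX2. The log2 difference between LINC00996 and control was -0.24 (SE 0.29, 95% interval -0.87 to 0.39), and -0.31 without LINC00996 replicate 1. It was -0.08 without control replicate 1 and -0.09 without LINC00996 replicate 2. DUOX1 had 20 to 40 counts a library.

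DUOXA1, the partner of DUOX1, had the fewest counts of the 7 genes: 9, 8 and 9 in control, 3, 1 and 5 with LINC00996, and 9, 15 and 17 with AP001189.3. The LINC00996 libraries were the lowest 3, and control replicate 1 and AP001189.3 replicate 1 had the same count. DUOXA1 did not pass the filter on low counts in any comparison. Mean levels were 0.516 ± 0.0159, 0.166 ± 0.104 and 0.847 ± 0.274 CPM (SD, n = 3), so the LINC00996 mean was 3.10-fold under control. The summed counts of 26, 9 and 41 had 95% Poisson intervals of 16.98 to 38.1, 4.12 to 17.1 and 29.4 to 55.6.

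**Figure D1:**
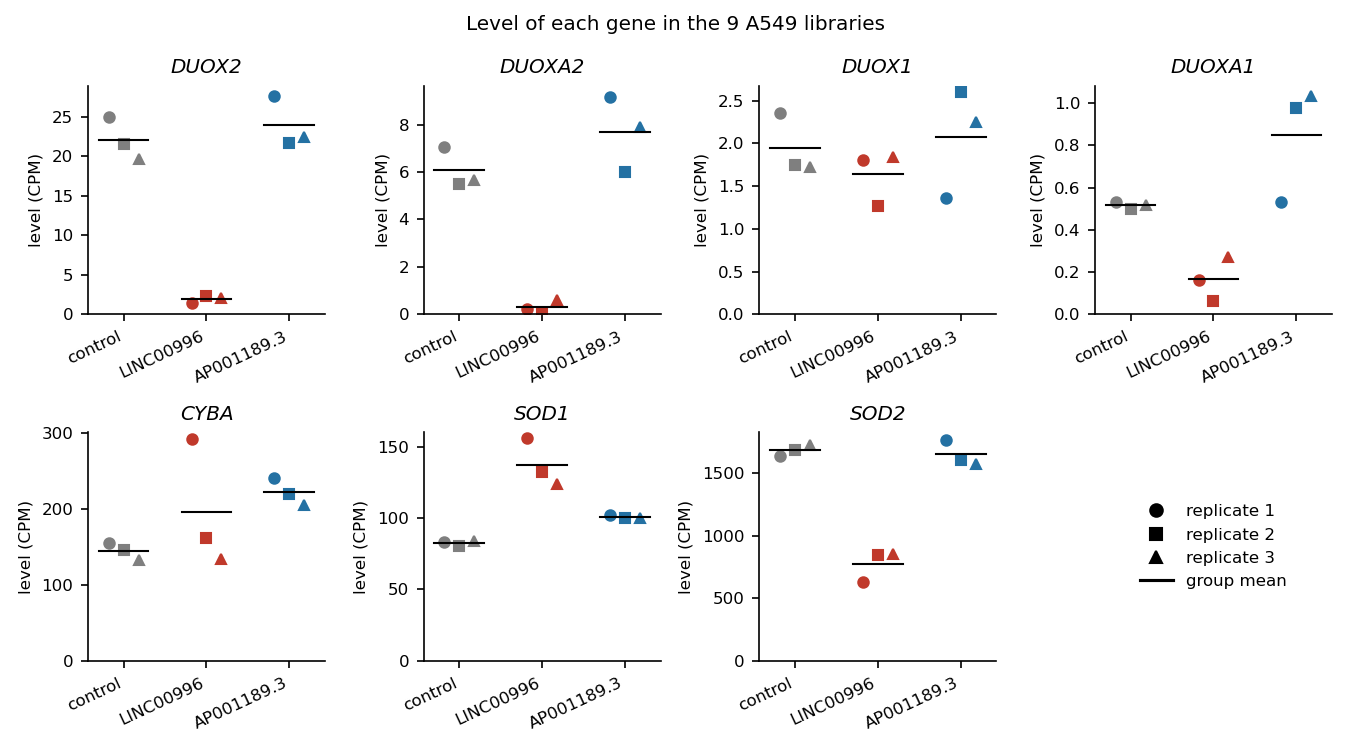
Level in CPM of the 7 genes in each of the 9 libraries, with points for replicates and a line for the group mean. DUOX2, DUOXA2, DUOXA1 and SOD2 were lowest in the 3 LINC00996 libraries, where SOD1 was highest.

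CYBA (ENSG00000051523, chromosome 16, 88643283 to 88651152, minus strand) had 156, 147 and 133 CPM in control. It had 293, 162 and 134 CPM with LINC00996, and 241, 220 and 205 with AP001189.3. LINC00996 replicate 1 was the highest library of all, while replicates 2 and 3 lay next to the controls. The log2 difference between LINC00996 and control was accordingly 0.44 (SE 0.25, 95% interval -0.13 to 1.00) with replicate 1 and 0.03 without it. The AP001189.3 libraries lay above every control, and the group means were 145 ± 11.8, 196 ± 85.0 and 222 ± 18.1 CPM (SD, n = 3).

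SOD1 (ENSG00000142168, chromosome 21, 31659622 to 31668931, plus strand), the cytosolic dismutase, had 83.0, 80.3 and 84.3 CPM in control. It had 156, 133 and 124 CPM with LINC00996 and 102, 100.4 and 99.8 with AP001189.3. The 3 groups did not overlap, and ran from control through AP001189.3 to LINC00996. The LINC00996 level was 1.66-fold that of control, a log2 difference of 0.73 (SE 0.10, 95% interval 0.51 to 0.96), and 0.63 without LINC00996 replicate 1. The spread was 2.01 CPM (SD, n = 3) in control, 16.8 with LINC00996 and 1.22 with AP001189.3.

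SOD2 (ENSG00000112096, chromosome 6, 159669057 to 159745186, minus strand), the mitochondrial dismutase, had 1635, 1687 and 1727 CPM in control. It had 633, 843 and 856 CPM with LINC00996, and 1768, 1606 and 1574 with AP001189.3. The LINC00996 libraries were the lowest 3, with replicate 1 lowest, while control and AP001189.3 overlapped. The level was 2.17-fold lower than in control, a log2 difference of -1.12 (SE 0.11, 95% interval -1.36 to -0.87), and -0.99 without LINC00996 replicate 1. The dismutases thus differed in opposite directions between LINC00996 and control.

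The members differ in base composition, which LINC00996 replicate 1 followed. The GC content of their longest transcripts was 61.3% for CYBA, 60.1% for DUOXA2, 59.0% for DUOX1, 56.9% for DUOX2, 54.7% for DUOXA1, 53.7% for SOD1 and 41.7% for SOD2. CYBA stood above 89.2% of 16552 genes in GC content and SOD2 above 23.0%. With the GC offset, the log2 difference between LINC00996 and control was -3.50 for DUOX2, -4.32 for DUOXA2 and -0.27 for DUOX1. It was 0.34 for CYBA, 0.71 for SOD1 and -1.09 for SOD2. The offset thus moved CYBA the most of the 6 and kept the direction of each.

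Counted over the set, 6 of 8 entries passed the filter in each comparison, all but DUOXA1 and the second SOD2 entry. Between LINC00996 and control, 3 of the 6 (DUOX2, DUOXA2 and SOD2) were lower without overlap of the libraries, 1 (SOD1) was higher, and 2 (DUOX1 and CYBA) overlapped. Of the 16097 genes tested there, 20.7% were lower and 19.8% higher without overlap. In that comparison edgeR called 1866 genes lower (11.6%) and 1722 higher (10.7%) at an adjusted p under 0.05, the threshold for every call. Without LINC00996 replicate 1 the total called went from 3588 to 5481, and without control replicates 1, 2 or 3 to 2094, 1925 or 2162.

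The comparison of AP001189.3 with control, which uses the same control libraries, was tested for the members. CYBA rose 1.53-fold, a log2 change of 0.61 (SE 0.06, adjusted p 4.19e-07 by edgeR), and was higher in 3 of 3 AP001189.3 libraries than in every control. SOD1 rose 1.22-fold, a log2 change of 0.29 (SE 0.06, adjusted p 6.22e-04), also in 3 of 3 libraries. These 2 of 6 tested members were called higher and did not overlap; among 16023 genes tested, 11.4% were called higher and 18.5% were higher without overlap.

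Both calls kept their direction with any 1 library left out, where the largest adjusted p was 5.46e-05 for CYBA and 0.0110 for SOD1. They were lost when all 9 libraries shared 1 estimate of the spread, with adjusted p of 0.228 for CYBA and 0.0935 for SOD1. AP001189.3 libraries followed GC content with positive rho, and control replicates 2 and 3 with negative rho of similar size. With an offset for GC content, CYBA was higher by 0.43 on the log2 scale (adjusted p 6.91e-07) and SOD1 by 0.21 (adjusted p 5.93e-03), both still called.

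The 4 other tested members were not called with AP001189.3, and their libraries overlapped those of control. DUOX2 had a log2 difference of 0.12 (95% interval -0.10 to 0.34, adjusted p 0.491), so the interval spans differences far smaller than that with LINC00996. For DUOXA2 it was 0.34 (95% interval -0.00 to 0.69, adjusted p 0.158), for DUOX1 0.08 (-0.52 to 0.69, adjusted p 0.881) and for SOD2 -0.03 (-0.13 to 0.07, adjusted p 0.739). Among all genes tested 8.49% were called lower and 16.7% were lower without overlap. The comparison called 3180 genes, and 1974 without control replicate 2 or 1914 without AP001189.3 replicate 2. With all 9 libraries in 1 fit it called 437, so the shares of called genes beside the members hold for the fit of 6 libraries.

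Set against AP001189.3 in place of control, the LINC00996 libraries had DUOX2 12.1-fold lower, a log2 difference of -3.60 (SE 0.19), and DUOXA2 24.8-fold lower, at -4.64 (SE 0.40). Without LINC00996 replicate 1 these were -3.42 and -4.43, and without LINC00996 replicate 3 DUOXA2 was at -5.65. SOD2 was at -1.09 (SE 0.12; -0.96 without replicate 1) and SOD1 at 0.44 (SE 0.10; 0.34 without replicate 1). CYBA was at -0.19 (SE 0.23) with overlap and at -0.59 without LINC00996 replicate 1, and leaving out another library took it to 0.03. DUOX1 was at -0.33 (SE 0.30; -0.39 without replicate 1). Without a filter DUOXA1 was at -2.26 (SE 0.63), against -1.56 (SE 0.75) in the comparison with control. As against control, 3 of 6 tested members were lower and 1 higher without overlap, where 19.7% and 19.5% of 16095 genes were; 12.1% of those genes were called lower and 9.38% higher.

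**Figure D2:**
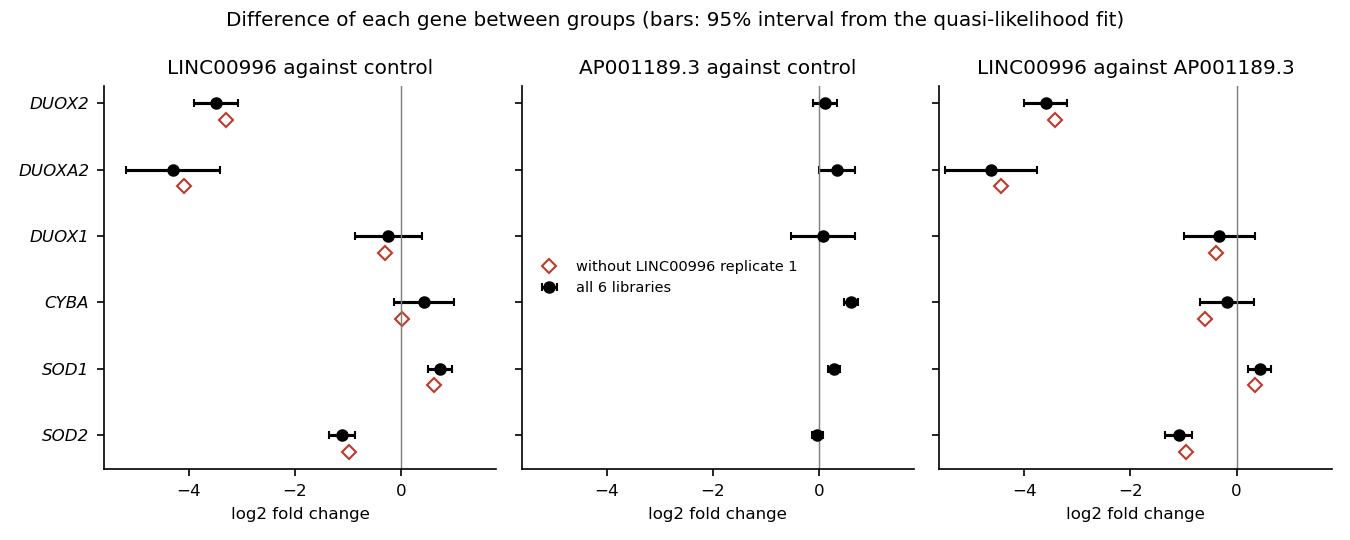
Log2 difference of the 6 tested members in each comparison, with bars for the 95% interval and open diamonds for the fit without LINC00996 replicate 1. DUOX2 and DUOXA2 lie at -3.48 and -4.29 between LINC00996 and control and at 0.12 and 0.34 between AP001189.3 and control, and the CYBA diamond lies at 0.03.

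To compare genes with each other, the CPM level was divided by gene length in kilobases (RPKM). In control, SOD2 had 102 ± 2.80 RPKM, CYBA 43.2 ± 3.52 and SOD1 40.9 ± 0.993 (SD, n = 3). DUOXA2 had 2.37 ± 0.341 RPKM and DUOX2 2.24 ± 0.275, DUOX1 0.221 ± 0.0407 and DUOXA1 0.139 ± 0.00427. CYBA and SOD1, and DUOXA2 and DUOX2, were within their spread of each other, while the steps between the other neighbours in this order were larger than it. Among 16567 detected protein-coding genes, SOD2 ranked 289 and DUOX2 ranked 9273.

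With LINC00996 the order of RPKM levels changed. By group mean SOD1 came first at 68.0 ± 8.32 RPKM, CYBA had 58.5 ± 25.3 and SOD2 47.1 ± 7.60 (SD, n = 3), with CYBA within its spread of both. The CYBA mean was carried by LINC00996 replicate 1, at 293 CPM against 162 and 134 in replicates 2 and 3. Per length, CYBA was above SOD1 in replicate 1 and under SOD2 in replicates 2 and 3. DUOX2 had 0.201 ± 0.0457 RPKM and DUOX1 0.187 ± 0.0365, which did not differ beyond their spread. DUOXA2 had 0.115 ± 0.107 and DUOXA1 0.0447 ± 0.0279 RPKM. DUOX2 then ranked 13009 of 16572 protein-coding genes, and SOD2 719. With AP001189.3 CYBA stood above SOD1 beyond their spread, while DUOX1, at 0.236 ± 0.0729 RPKM, and DUOXA1, at 0.228 ± 0.0736, were within it. There DUOX2 had 2.43 ± 0.327 RPKM, DUOXA2 3.01 ± 0.626, CYBA 66.2 ± 5.38, SOD1 49.9 ± 0.605 and SOD2 100.003 ± 6.30.

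The ratio of DUOX2 to DUOX1 in RPKM was 9.47, 11.01 and 10.2 in control, 0.731, 1.65 and 1.02 with LINC00996, and 18.1, 7.44 and 8.91 with AP001189.3. On this scale DUOX2 was the leading dual oxidase transcript in control and AP001189.3 libraries, and the pair were near parity with LINC00996. The ratio of SOD2 to SOD1 was 2.41, 2.57 and 2.51 in control, 0.496, 0.779 and 0.848 with LINC00996, and 2.12, 1.96 and 1.93 with AP001189.3. Per length, SOD2 was above SOD1 in 6 of 6 control and AP001189.3 libraries and under it in 3 of 3 LINC00996 libraries. That crossing rests on the exonic lengths in the table, 16493 bases for SOD2 and 2019 for SOD1, since in CPM SOD2 was above SOD1 in 9 of 9 libraries. The 3 groups did not overlap in this ratio.

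**Figure D3:**
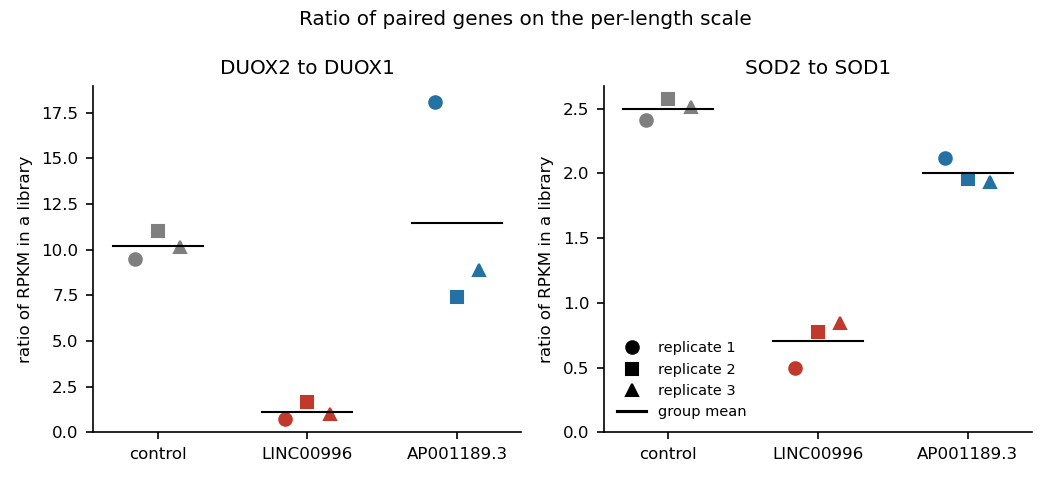
Ratio of DUOX2 to DUOX1 (left) and of SOD2 to SOD1 (right) in RPKM in each library, with a line for the group mean. The LINC00996 libraries lie at 0.731 to 1.65 on the left and at 0.496 to 0.848 on the right, under every other library.

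The 4 DUOX genes share a span of chromosome 15, and other protein-coding genes within 100000 bases of it were SORD, SHF and SLC28A2. SORD, which encodes sorbitol dehydrogenase, lies beyond DUOX2 and had 27.0 ± 2.94 CPM in control, 31.7 ± 0.114 with LINC00996 and 28.6 ± 2.26 with AP001189.3 (SD, n = 3). Its log2 difference between LINC00996 and control was 0.23 (adjusted p 0.175), and with the GC offset 0.24 (adjusted p 0.0464). SHF, beyond DUOX1, was at 0.40 with LINC00996 (adjusted p 0.442; -0.01 without LINC00996 replicate 1) and at 0.92 with AP001189.3 (adjusted p 0.0189); the AP001189.3 call was lost without control replicate 2 (0.0897) or AP001189.3 replicate 2 (0.137), with the GC offset (0.0636) and with all 9 libraries in 1 fit (0.116). SLC28A2 had 0 to 6 counts and was not tested. Neither tested neighbour had a mean level under control over the 3 LINC00996 libraries, in contrast to DUOX2, DUOXA2 and DUOXA1. The DUOX1 mean was also under control, at 1.64 against 1.94 CPM, but its libraries overlapped.

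**Figure D4:**
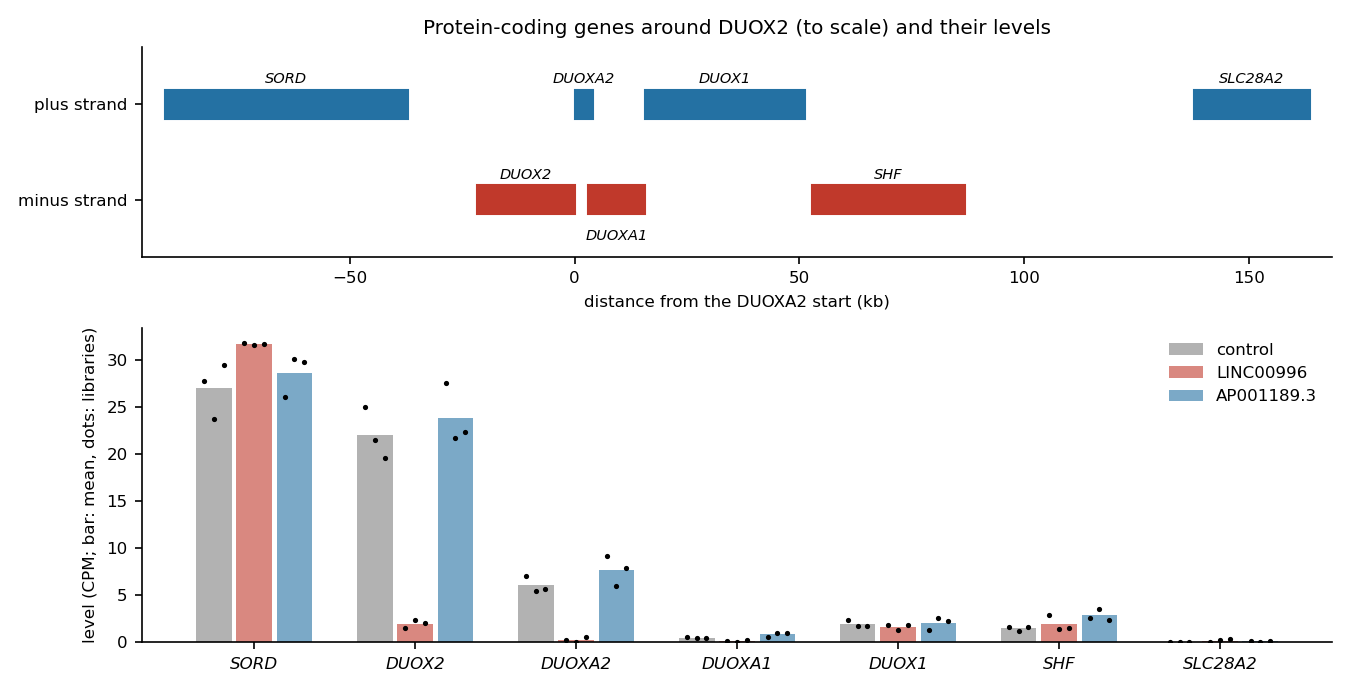
Protein-coding genes around DUOX2, drawn to scale by strand against the distance from the DUOXA2 start in kilobases, and their mean levels in CPM with a point for each library. DUOX2 and DUOXA2 stand out by their low LINC00996 bars beside SORD at 27.0 to 31.7 CPM.

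The members also share sequence, which bears on how reads can be assigned. DUOXA2 and DUOXA1 overlap tail to tail on opposite strands by 706 exonic bases, 27.6% of DUOXA2 and 19.0% of DUOXA1, and the strand setting of the counting was not stated. Of the 50-base words in DUOXA2 transcripts, 25.3% also occurred in another gene, and for DUOX2 it was 6.71%, with DUOX1 as the leading other gene. SOD2 overlaps its second entry, on the same strand, by 845 exonic bases (5.12% of SOD2). Of its 50-base words 12.5% also occurred in another gene, led by that entry. SOD2 also overlaps WTAP, on the opposite strand, by 298 exonic bases (1.81% of SOD2). WTAP was itself lower with LINC00996, by a log2 change of -0.78 (adjusted p 2.45e-04, 3 of 3 libraries under every control), and its part in the SOD2 result was not tested.

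Promoter windows of RefSeq were found for 6 of the 7 genes, not for SOD1. They were searched on both strands for the interferon-stimulated response element core TTCNNTTTC, the gamma-activated sequence TTCNNNGAA and the NF-kB site by name. These occurred in 8.11%, 7.66% and 5.91% of all promoter windows, and the letters were not in any window of the 6 genes.

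Among 14623 genes with at least 1 CPM on average, the 8 whose log2 levels were most like those of DUOX2 over the 9 libraries were DUSP5, IRAK2, XDH, HIST2H2BE, NFKBIZ, MLKL, LGMN and SLC6A14. Their Pearson's r ran from 0.994 to 0.997 and rested on the gap between LINC00996 and the other groups; with the group means removed r was 0.511 (LGMN) to 0.835 (HIST2H2BE). DUSP5, a phosphatase of MAP kinases, was nearest, with 247, 232 and 242 CPM in control, 63.5, 71.0 and 75.3 with LINC00996 and 251, 230.3 and 240.1 with AP001189.3. XDH, whose product can produce superoxide as xanthine oxidase, had a log2 difference of -1.20 between LINC00996 and control. By Spearman's rank correlation 0 of the 8 stayed among the 8 nearest, and without LINC00996 replicate 1 only 1 did. Among the members, r with DUOX2 was 0.986 for SOD2, 0.965 for DUOXA2, 0.846 for DUOXA1, 0.353 for DUOX1, -0.0885 for CYBA and -0.889 for SOD1, given as a description without a test.

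Related genes were followed in 6 lists of 72 names, of which 54 were tested. Between LINC00996 and control 21 fell and 7 rose, where 11.6% and 10.7% of all genes tested did, with a median log2 change of -0.28 against 0.01 over all genes. Without LINC00996 replicate 1, 26 fell and 11 rose, while the calls over all genes went from 3588 to 5481. Of the 28 calls, 10 were lost with some library left out, and 17 held under every alternative. Between AP001189.3 and control 9 rose and 8 fell, where 11.4% and 8.49% of all genes did, with a median of 0.02 against -0.00. Of these 17 calls, 8 were lost with some library left out, and 4 (IRF1, STAT2, SAA1 and SLPI) held under every alternative. Between LINC00996 and AP001189.3, 24 were lower and 5 higher, where 12.1% and 9.38% of all genes were. Without LINC00996 replicate 1 these were 28 and 13, while the calls over all genes went from 3452 to 6828.

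Of the partners of other NADPH oxidases, 5 of 13 were tested, and with LINC00996 4 fell (11.6% of all genes tested did), with a median of -0.44. Without LINC00996 replicate 1, 6 were tested and 4 fell, with a median of -0.77. NOX1, an oxidase that works with CYBA, had 16.4, 14.8 and 14.7 CPM in control and 5.26, 7.24 and 6.50 with LINC00996, and fell by 1.28 (adjusted p 1.46e-04). The GTPase RAC1 was at -0.44 (adjusted p 0.0114) and CYBC1 at -0.35 (0.0171), calls lost for RAC1 without control replicate 1 (0.0607) or 2 (0.0619) and for CYBC1 without LINC00996 replicate 2 (0.0630) or control replicates 1, 2 or 3 (0.0652, 0.0714, 0.0824). With AP001189.3 NOX1 was the 1 call, at -0.38 (adjusted p 0.0226), lost without control replicate 1 (0.0696) or 2 (0.0517) or AP001189.3 replicate 2 (0.113) or 3 (0.0971), with the GC offset (0.0567) and with all 9 libraries in 1 fit (0.143).

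Of the genes for peroxide removal, 15 of 17 were tested, and with LINC00996 6 rose (10.7% of all genes tested did) and 9 were not called, with a median of 0.21. Among the 6, the calls of CAT and TXN2 were lost with some library left out (adjusted p up to 0.0630 and 0.108). The peroxiredoxins PRDX1 and PRDX3 rose by 0.59 (adjusted p 3.29e-04) and 0.61 (1.46e-03), and the mitochondrial thioredoxin reductase TXNRD2 by 0.85 (1.51e-03), each in 3 of 3 libraries. PRDX5 had 55.2, 49.5 and 45.9 CPM in control, 195, 106 and 85.9 with LINC00996 and 87.9, 89.1 and 83.4 with AP001189.3. It rose by 1.36 with LINC00996 (adjusted p 7.54e-03), by 0.93 without LINC00996 replicate 1, and by 0.79 with AP001189.3 (6.06e-09), where the median was -0.03. The PRDX5 call was lost with LINC00996 when no filter was used (0.0694), and with AP001189.3 when all 9 libraries were in 1 fit (0.153). GPX2, GPX8 and TXN fell with AP001189.3, calls lost for GPX2 and GPX8 with some library left out (up to 0.102 and 0.0805) and for TXN under another alternative (0.0725). The GPX8 call was also lost with the GC offset (0.0818). Under the other alternatives the adjusted p reached 0.179 for GPX2 and 0.199 for GPX8.

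Of the partners of superoxide dismutation, SOD3 was at 3 counts or fewer in every library and 3 of 4 were tested. CCS, the copper chaperone of SOD1, rose with LINC00996 by 0.78 (adjusted p 0.0310), and by 0.42 without LINC00996 replicate 1, a call lost without control replicate 1 (0.131), 2 (0.0637) or 3 (0.101). The copper importer SLC31A1 was at 0.27 (adjusted p 0.0838), or 0.33 (1.44e-03) without LINC00996 replicate 1, and was also called with the GC offset (2.68e-03) or all 9 libraries in 1 fit (0.0446). The copper chaperone ATOX1 was at 0.30 (0.286), or 0.00 without LINC00996 replicate 1. With AP001189.3 CCS rose by 0.38 (adjusted p 0.0318), a call lost with the GC offset (0.424), a gene-length offset (0.103), DESeq2 (0.0556) or all 9 libraries in 1 fit (0.334), and without control replicate 1 (0.135), AP001189.3 replicate 1 (0.128) or 2 (0.108). The list median was 0.30 with LINC00996 and 0.21 with AP001189.3.

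Of the peroxidases and the carriers of their halide or thiocyanate substrates, 4 of 10 were tested. With LINC00996 the iodide carrier SLC5A5 fell by 1.30 (adjusted p 0.0365), a call lost without LINC00996 replicate 1 (0.0789) or 3 (0.0610) and without control replicate 1 (0.0505), 2 (0.124) or 3 (0.134). ANO1, a chloride channel, was at -0.67 (adjusted p 0.0559; 0.0394 without LINC00996 replicate 1, 0.0263 with the GC offset and 0.0268 with all 9 libraries in 1 fit), CFTR at -0.27 (0.599) and PXDN at -0.03 (0.909). The list median was -0.47. With AP001189.3 it was -0.00, and the adjusted p was 0.719 for SLC5A5, 0.949 for ANO1, 0.599 for CFTR and 0.908 for PXDN.

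Of the genes for mucosal defence, 11 of 12 were tested, and with LINC00996 7 fell (11.6% of all genes tested did) and 4 were not called, with a median of -0.78. PIGR, which carries antibodies across epithelia, went from 17.7, 17.4 and 15.4 CPM in control to 4.11, 3.87 and 4.33, a log2 change of -2.03 (adjusted p 3.28e-06). The acute-phase gene SAA2 fell by 1.55 (1.56e-05), the protease inhibitor SLPI by 1.13 (7.47e-05) and the iron-binding LCN2 by 0.78 (5.59e-04), each in 3 of 3 libraries. NOS2 and SAA1 also fell with LINC00996, by 1.69 (adjusted p 1.15e-03) and 0.69 (0.0118). That SAA1 call was lost with some library left out (up to 0.0552). With AP001189.3 SAA1 and NOS2 rose and SLPI fell, by 0.71 (adjusted p 9.26e-04), with a median of 0.12. The NOS2 call with AP001189.3 was lost with some library left out (up to 0.0533). There PIGR, at -0.34 (0.0565), was called under some alternatives, the GC offset (0.0163) among them.

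Of the cytokine receptors and factors known upstream of DUOX genes, 16 of 16 were tested, and with LINC00996 9 fell (11.6% of all genes tested did) and 7 were not called, with a median of -0.47. Among the 9, the calls of IFNAR1, IL4R and STAT3 were lost with some library left out (adjusted p up to 0.153, 0.0619 and 0.0662). IRF1, an interferon-induced factor, had 186, 177 and 196 CPM in control, 99.7, 90.0 and 89.4 with LINC00996 and 276, 264 and 283 with AP001189.3. It fell by 1.00 with LINC00996 (adjusted p 2.07e-05) and rose by 0.56 with AP001189.3 (adjusted p 2.54e-08), each in 3 of 3 libraries. The interferon gamma receptor genes IFNGR2 and IFNGR1 fell with LINC00996 by 0.96 (2.90e-05) and 0.72 (3.17e-04), and RELA, a subunit of NF-kB, by 0.80 (1.95e-04). With AP001189.3 IRF1, RELA, NFKB1, STAT2 and STAT6 rose and IFNAR1, IFNGR1 and IFNGR2 fell, with a median of 0.02. The calls of NFKB1, IFNGR1 and IFNGR2 were lost with some library left out (up to 0.228, 0.168 and 0.194), and those of NFKB1 and IFNGR1 with the GC offset (0.0639 and 0.340). Those of RELA (0.0889), STAT6 (0.0703) and IFNAR1 (0.170) were lost under another alternative.

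**Figure D5:**
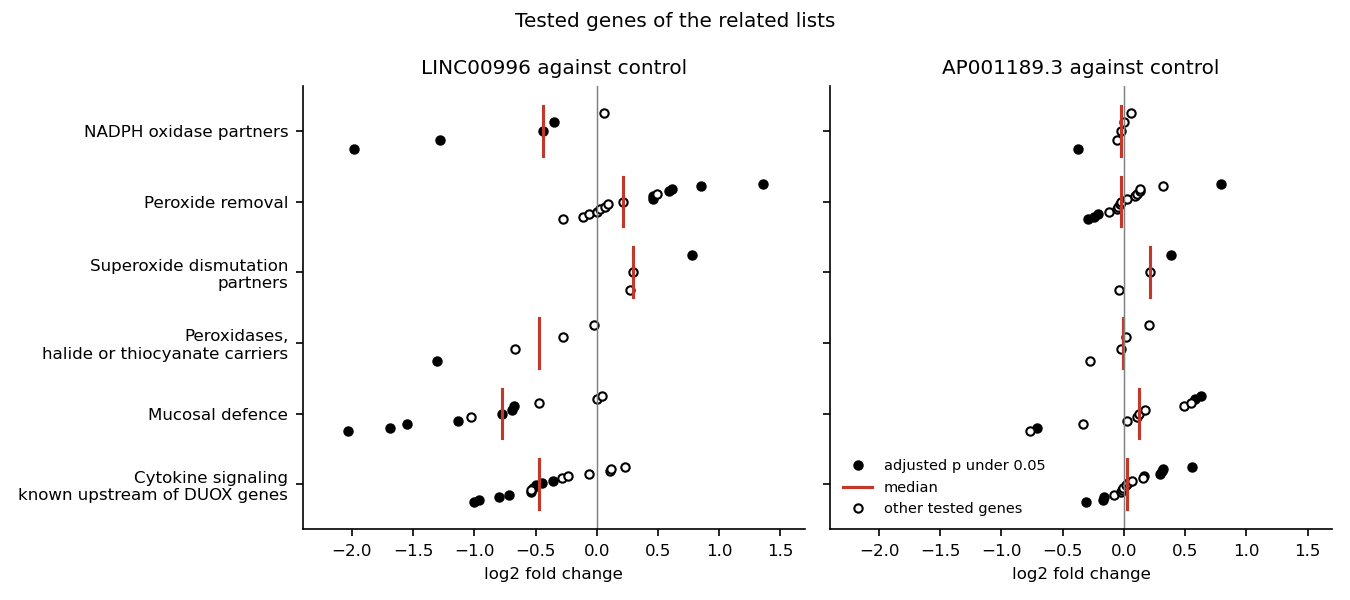
Log2 change of every tested gene of the 6 related lists in both comparisons with control, filled where the adjusted p is under 0.05, with a line at each list's median. With LINC00996 the medians lie at -0.78 for mucosal defence, -0.47 for cytokine signaling and 0.21 for peroxide removal.

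Marker genes were read as a check of the cells. All 5 epithelial markers were detected, with KRT8 the most abundant, and they summed to 6959, 6815 and 6735 CPM in control, 9110, 6977 and 7008 with LINC00996 and 7470, 7592 and 7542 with AP001189.3. The sum was carried by KRT8 and KRT18, and single markers differed from it: with LINC00996 CDH1 fell by 0.89 (adjusted p 2.92e-05). KRT19 fell by 0.40 (0.0256), a call lost with any library but LINC00996 replicate 1 left out (up to 0.115). CDKN2A, which A549 cells are known to have lost, had 0 counts in 9 of 9 libraries. The 4 leukocyte markers summed to at most 0.912 CPM. The 4 fibroblast markers, led by COL1A1, summed to 22.6, 25.7 and 22.4 CPM in control, 18.3, 17.7 and 16.0 with LINC00996 and 21.3, 24.3 and 20.9 with AP001189.3, with DCN at 1 count or less. With LINC00996 COL1A1 fell by 0.62 (adjusted p 6.35e-03), while COL3A1 was at 0.51 (0.136), with all 3 libraries above every control.

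The 3 endothelial markers, led by PECAM1, summed to 11.7, 12.3 and 13.1 CPM in control, 5.26, 6.42 and 6.50 with LINC00996 and 9.58, 7.29 and 8.86 with AP001189.3, with VWF at 3 counts or fewer. Both groups lay under control: PECAM1 fell by 1.42 with LINC00996 (adjusted p 2.84e-04) and by 0.80 with AP001189.3 (7.03e-04), while CDH5 was not called with LINC00996 (0.125). The part of these markers in the DUOX2 result was not tested.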

How the data were processed

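RNA from the 9 A549 libraries was sequenced as 150-base read pairs. The authors aligned them with HISAT2 2.0.5 and made raw counts per gene with featureCounts 1.5.0-p3. The deposited FPKM values, made by the authors from counts and gene length, were only checked against the counts: within each library they were proportional to count over length. Gene coordinates equalled GENCODE 29 for 58698 of 58735 genes. Totals of 15272450 to 18125447 counts set the precision, and each interval is given beside its value.

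Groups followed the titles. Each of 3 comparisons was fitted to its 6 libraries with edgeR 4.0.16 in R 4.3.3: filterByExpr, TMM scaling, robust quasi-likelihood fit and Benjamini-Hochberg adjustment over all genes tested, called at 0.05. Comparisons with the same control libraries are set side by side and not correlated. Log2 levels used a prior count of 2, RPKM the gene length in the table, and a gene with 3 or fewer counts in each library counted as at the floor. Spearman's rho of GC content used the log2 deviation of each gene in a library from its mean.

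The members, lists and markers were chosen with earlier results of these data known. Named genes were all members, the 2 overexpressed RNAs, up to 4 genes a list with the smallest adjusted p between LINC00996 and control, the 8 genes nearest DUOX2, the protein-coding neighbours and the markers; not every gene this rule names is given, and other names were chosen after their values were seen. Sequences came from RefSeq (GRCh38.p14).

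Alternatives were DESeq2 1.42.0, its size factors, library size alone, no filter or at least 10 counts, all 9 libraries in 1 fit, a gene-length offset, a replicate block, each library left out, and a GC offset chosen after seeing the data. Replicate numbers were not used as pairs. No count column was left out. No genome or protein sequences were given, so proteins were not compared.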

Additional observations from a re-analysis of the deposited data

How the results depend on the processing

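The log2 difference of DUOX2 between LINC00996 and control ran from -3.61 to -3.30 with each library left out and from -3.50 to -3.40 under the other alternatives. No result changed direction past the threshold.

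The number of called genes moved. Between LINC00996 and control (3588) it was 6007 with the GC offset and 1925 to 5481 with each library left out. Between AP001189.3 and control (3180) it was 437 with all 9 libraries in 1 fit and 1914 to 3598 with each left out. Between LINC00996 and AP001189.3 (3452) it was 5879 with the GC offset and 1840 to 6828 with each left out. The cause was not tested.

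With the replicate number as a block, 4500, 3466 and 3772 genes were called. The labels do not say that a number pairs libraries. Deviations from group means correlated over 0.1 in 7 of 9 same-numbered pairs (0.05 to 0.37; other pairs -0.34 to 0.17), among them the 3 of LINC00996 with control (0.367, 0.116 and 0.208), and 6 of 9 libraries matched best under their own number.

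For the members 271 values kept their side of the threshold or moved by less than their spread, 3 moved further, all without LINC00996 replicate 3, and 2 calls were lost. For other named genes 1800 values kept their side, 42 gained a call and 101 lost one. Among counts of list calls and nearest genes, 9 values were labelled as little changed and 6, all of nearest genes, as moved. The first label does not mean an equal count. List calls went from 28 to 37 or 39 between LINC00996 and control and from 17 to 14 between AP001189.3 and control. Between LINC00996 and AP001189.3 they went from 29 to 41 or 40.

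Limits: 3 libraries a group, DUOXA1 and DUOXA2 with few counts, and an unstated strand setting for genes that overlap. Dropping a library leaves 2 in a group, and the GC offset of transcripts was chosen after seeing the data, since the planned offset from a genome was not run. Removing the filter admits genes with few counts and changes the adjustment.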
